A study of Mus musculus with 15 samples.

Results

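The rescue line of a series on Srf, the gene of serum response factor, was followed through fetal bovine serum (FBS) stimulation in mouse embryonic stem (ES) cells. Its members were the 5 arrays whose titles carry the name E100-/- rescue, of 15 arrays in all, and they were taken by title and not by any measured value. The 15 arrays are Affymetrix MGU74A arrays, on which several short oligonucleotides per transcript, together called a probe set, give 1 reading, hybridized with total RNA of 3 ES cell lines at 0, 10, 30, 60 and 180 min of FBS. The other lines are E14wt, which is wild type, and E100-/-, the Srf-null line from which, by its name, the rescue line was made. Each line and time has 1 array. The labels do not say which construct or promoter restored Srf, whether the rescue line is 1 clone, how long the cells had been kept without serum before time 0, or whether the times came from separate cultures. The arrays at 60 and 180 min (the later arrays) were set against those at 10 and 30 min (the earlier arrays), 2 against 2, and the array at 0 min was kept out of this contrast.

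Serum reaches Srf target genes by 2 known routes. Growth factor signalling through ERK activates ternary complex factors, which sit with SRF on the promoters of immediate-early genes such as Egr1 and Fos. Actin polymerization releases the MRTF cofactors, which act with SRF on genes of the actin cytoskeleton. Both routes use a short DNA element named the CArG box. Immediate-early genes need no new protein for their induction, and many of them are known to return to low levels soon after. The comparison asks how transcripts of these and other groups stood late against early in serum in a line in which Srf had been lost and put back.

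Values are given as normalized intensity, the deposited signal after the arrays were brought to the same distribution, and differences as log2 of later over earlier. Values below 0 come from the background subtraction that preceded deposit. Values under a floor of 84.98 intensity were set to that floor before log2 was taken, so a difference from a group at the floor is a lower limit. The test covered the 7881 probe sets that exceeded this floor on 2 or more of the 4 arrays.

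The arrays read an ES cell population. All 8 ES cell markers, Pou5f1 among them, were above the floor on all 5 arrays, with summed intensities between 65123 and 88455. Markers of other cell types were present in part. Of 7 extraembryonic endoderm markers, 5 were above the floor at 10 min, 6 at 30 min and 7 at both 60 and 180 min. Their summed intensity was 2411, 2997, 3218 and 3774 from 10 to 180 min. Of 8 fibroblast feeder markers, Col1a2, Thy1 and Pdgfrb did not exceed the floor on any of the 4 arrays of the contrast, while Col1a1 (546 to 849), Vim (325 to 746), Col3a1 and Lum did on all 4 and Dcn on 3. Of the neural markers Sox1 was under the floor on all 4 and Pax6, Nes and Tubb3 above it, and of the mesoderm markers Mesp1 was under it and Kdr above it (372 to 886). Cdx2 and Hand1 of trophoblast did not exceed it. Summed intensities of the feeder, neural and mesoderm markers, from 10 to 180 min, were 1728 to 1904, 938 to 1684 and 372 to 886. All these sums took in markers under the floor, with values below 0 counted as 0. The summed intensity of 7 trophoblast markers, 4 or 5 of them above the floor, was 9071 and 8988 on the earlier arrays and 16757 and 12560 on the later ones, and came mostly from the keratins Krt8 and Krt18 and from Tfap2c. The part of these cells in the serum differences was not tested. In bulk RNA, fewer cells of a type and less RNA per cell cannot be told apart. Srf itself has no probe set in the annotation used, so the genotype could not be checked by its own transcript.

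The array labelled 0 min stood apart from the other 4. Igf2, a fetal growth factor, read -1829 intensity there and 5942 to 10240.1 on the others, and Krt18, an epithelial keratin, read 201 against 2760.2 to 7036. Actg1, cytoplasmic gamma actin, read 8891 against 32948 to 41633. The actin control gave a 3′ over 5′ ratio of 4.22 at 0 min and 0.914 to 1.42 at the other times. The wild-type 0 min array departed from its line in the same 3 genes, with Igf2 at -1853 against 2640.3 to 5223, Actg1 at 9783 against 27389.6 to 38839 and Krt18 at 309.8 against 1551 to 2133. On all 5 Srf-null arrays Igf2 was below 0, Actg1 read 7327 to 14004 and Krt18 157 to 532. Whether the array labelled rescue 0 min holds the sample its label names was not settled. The 18S rRNA control read 21109 at 0 min and 21819 at 180 min, but 498 to 2082 in between, so the 180 min array shares that feature with the 0 min array. Pearson correlations between arrays, taken over probe sets (no independent replicates) on the log2 scale, were 0.870 to 0.897 between the 0 min array and the others and 0.898 to 0.926 among the others. The share of values not above 0 was 37.6% at 0 min, 37.4% at 10 min and 25.02% to 26.0% from 30 to 180 min. Whether these features moved the differences described here was not tested.

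Only 1 transcript, Elovl1, passed the test of later against earlier arrays. Among named genes, the next largest rises without overlap were those of Med22, Ccn2 and Egr1, which did not pass it. Elovl1, which encodes an elongase of very-long-chain fatty acids, read -23.1 and 56.6 intensity at 10 and 30 min and 6524 and 8891 at 60 and 180 min. It rose by 6.49 ± 0.287 (log2, standard error), a lower limit of 89.6-fold because both earlier arrays were at the floor (limma with Benjamini-Hochberg adjustment, adjusted p = 0.0144). Both earlier arrays were set to the same floor value, so this standard error and p-value hold no spread between them. The gene entered the test through its later arrays alone. With the spread estimated over all lines, without their 0 min arrays, the standard error was 1.18. Asinh values in place of floor and log2 gave an adjusted p of 0.0316 (limma). Elovl1 was the only call, 0.0127% of the probe sets tested, and 709 probe sets (9%) had an unadjusted p under 0.05. The 0 min array read Elovl1 at 8271, as high as the later arrays, and the gene has 1 probe set. The wild-type arrays read it at 1695, 1121, 8789, 6076 and 7537 from 0 to 180 min and the Srf-null arrays at 5368, 8369, 3513, 8333 and 501, so in neither of them did it separate early from late. The call was lost when any of the 4 arrays was left out.

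When the spread was estimated from all 12 arrays of 10 to 180 min of the 3 lines, 2 probe sets passed (0.0254%), those of Fosb (adjusted p = 0.00189, limma) and Rhob (adjusted p = 0.0330, limma), and Elovl1 did not (adjusted p = 0.166). A contrast of 2 arrays against 2 cannot go below p = 0.333 in an exact permutation test, so the groups below are described by counts and values. Both later arrays lay above both earlier ones for 1510 probe sets (19.2%) and below them for 1680 (21.3%). With a difference of at least 2-fold as well, 303 probe sets were higher (3.84%) and 278 lower (3.53%). With arrays scaled to a common median in place of quantile normalization this split was 666 against 103, and the median of all tested probe sets stood at 0.23 in place of -0.02. The plot of later against earlier means shows where the named genes lie among all probe sets.

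**Figure D1:**
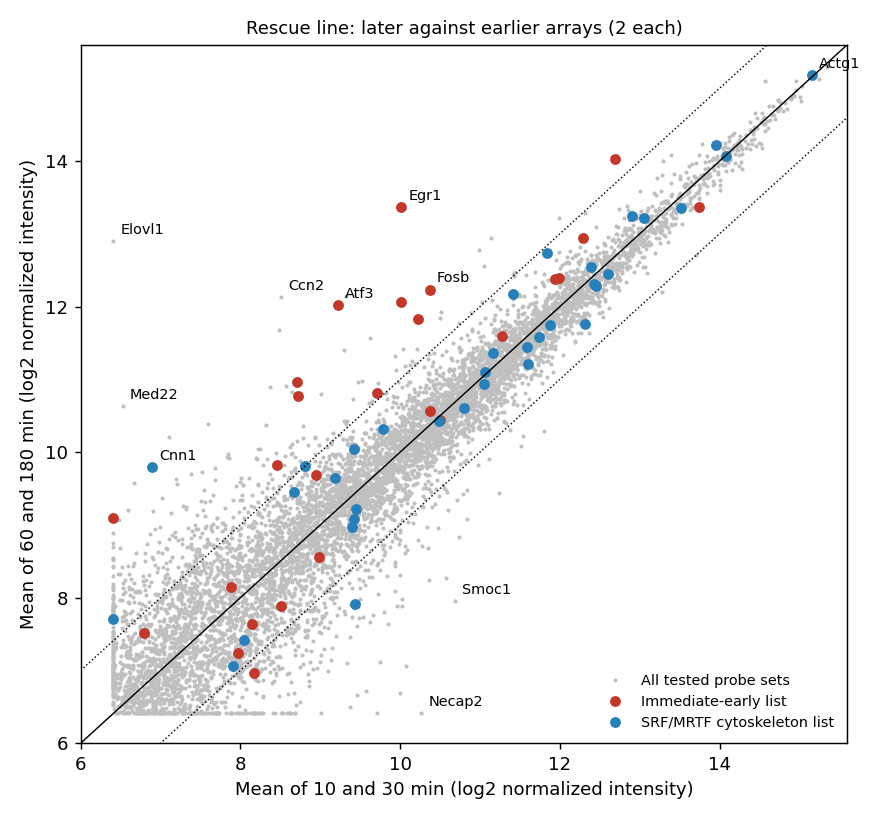
Mean log2 normalized intensity of the 10 and 30 min arrays (x axis) against that of the 60 and 180 min arrays (y axis) for 7881 probe sets of the rescue line, with the immediate-early list in red, the SRF/MRTF cytoskeleton list in blue, and dotted lines at 2-fold. Elovl1 and Med22 stand far above the line at the left edge, Egr1, Atf3, Ccn2 and Fosb above it at higher signal, and Actg1 lies on it.

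Immediate-early transcription factors and their kin formed the clearest group. Of 34 genes listed, 29 had a probe set and 26 were tested. Of these, 0 were called, and 16 were higher on both later arrays and 4 lower, against 19.2% and 21.3% of all probe sets. At least 2-fold higher were 10 and 1 was as far lower, against 3.84% and 3.53% of all. An unadjusted p under 0.05 was reached by 11, against 9% of all probe sets, and 2 were called with the spread shared over 12 arrays. Their median difference was 0.69, beside -0.02 for all tested probe sets, and it stayed between 0.59 and 0.86 under the settings that kept all 4 arrays.

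Egr1, a zinc finger activator that carries serum signals to growth genes, read 882 and 1208 intensity at 10 and 30 min, then 8094 at 60 min and 13748 at 180 min. Every later array was above every earlier one, and the 180 min array was the highest. The difference was 3.35 ± 0.298, or 10.2-fold (adjusted p = 0.178, limma). A second Egr1 probe set gave 2.02. Fosb, an AP-1 subunit, read 1402 and 1249.7 early and 4956 and 4685 late. Its arrays agreed closely within each pair, so the difference of 1.86 ± 0.140 had the smallest standard error among the 2-fold members of the list (adjusted p = 0.112, limma). Unlike Egr1, Fosb was no higher at 180 than at 60 min.

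Other AP-1 members followed with wider spread. Junb read 433 and 407 early and 1717 and 2338 late, a difference of 2.25 ± 0.268, and its second probe set gave 2.52. Jun was not above the floor at 10 or 30 min and read 289 and 1033 at 60 and 180 min, a lower limit of 2.69 ± 0.714. Atf3, a stress-induced repressor of the ATF/CREB family, read 595 and 600.4 early and 3116 and 5522 late, a difference of 2.79 ± 0.299. For all 3 genes the 180 min array was the highest of the 4. Fos, the classic serum-induced AP-1 gene, read only 62.9, 144, 162 and 207, close to the floor throughout, with a difference of 0.73 ± 0.486. Maff, a small Maf protein, was the 1 member at least 2-fold lower, at 238 and 348 early and 183 and -118 late.

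Further members with other roles lay higher too. Zfp36, which encodes an RNA-binding protein that destabilizes cytokine and growth factor mRNAs, read 438 and 409 early and 1529.7 and 2007 late (2.05 ± 0.270). Rhob, a small GTPase of endosomes and actin, read 1105 and 956 early and 3724 and 4931 late (2.06 ± 0.196). Klf6, a zinc finger factor, read 1228 and 1169 early and 3111 and 4272 late (1.61 ± 0.198). In each of them both earlier arrays were nearly equal and both later arrays were well above. Ier2 read 6518 and 6697 early and 13924 and 19953 late (1.34 ± 0.198), and Nr4a1, an orphan nuclear receptor, 927 and 759 early and 1319 and 2459 late (1.10 ± 0.344).

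Members that did not share the pattern included 2 well-known serum genes. Egr2 read 1549, -336, -131 and 659 from 10 to 180 min, with a difference of -0.62 ± 1.63 that changed sign to 1.48 without the 10 min array and to 0.86 without the 60 min array. Myc read 282, 198, 309 and 257, a difference of 0.26 ± 0.469. Early and late arrays overlapped for both.

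**Figure D2:**
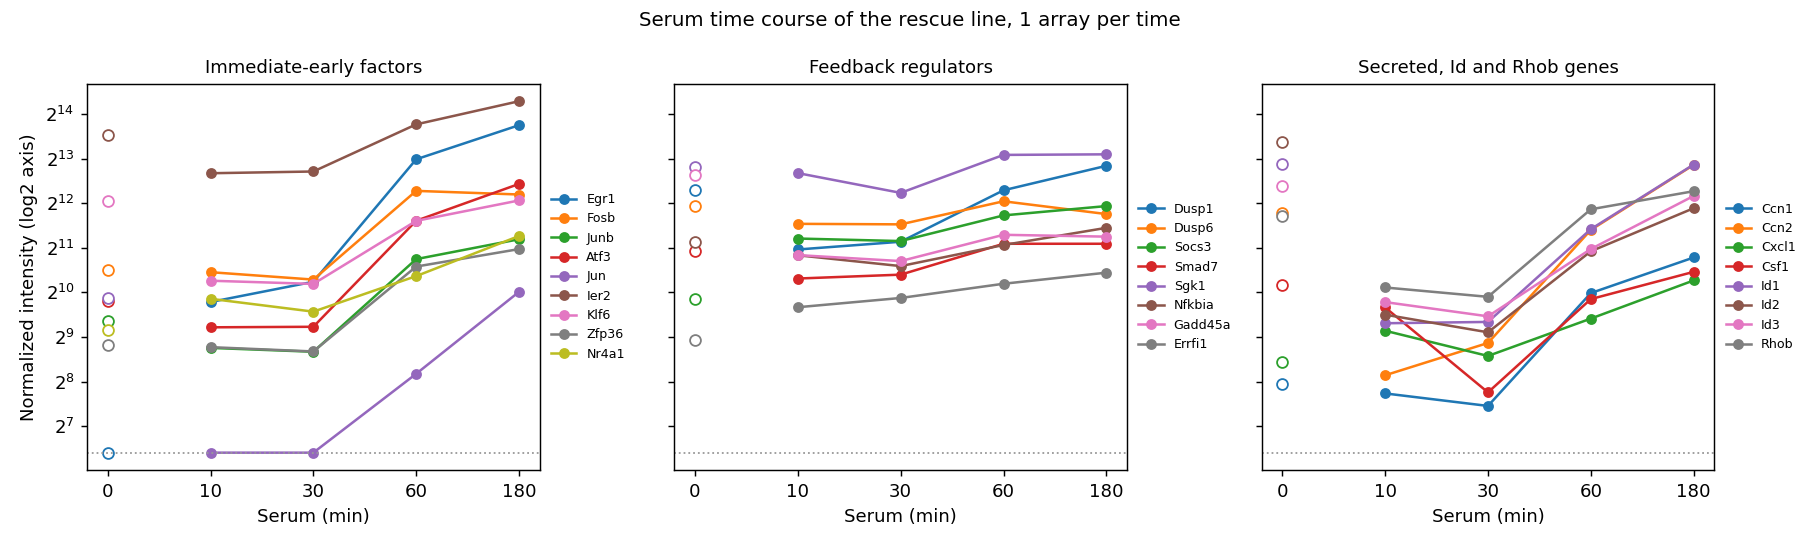
Normalized intensity (log2 axis) at each time of serum in min, evenly spaced and not to scale, for genes of 3 groups in the rescue line, with 1 array per time, the 0 min array as open circles and the floor as a dotted line. Egr1 goes from 882 at 10 min to 13748 at 180 min, and the Id genes and Rhob read as high at 0 min as at 180 min or close to it.

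The 0 min array did not serve as a common baseline for these genes. Egr1 was below 0 there, at -155, and Zfp36 and Fosb read 449 and 1455, close to their 10 min values. Rhob, Klf6 and Ier2 read 3362, 4231 and 11893 at 0 min, above both earlier arrays. Over the 303 probe sets higher late, the 0 min value was nearer to the later mean in 167 (55.1%), and this was so in 53.7% of all tested probe sets.

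In the other lines the same probe sets can be read on arrays that the rescue contrast did not use. Egr1 read 503, 1515, 9120.2 and 17551 in wild-type cells and 343, 176, 260.4 and 201 in Srf-null cells from 10 to 180 min, so the rescue arrays lay near the wild-type ones. The response of the rescue line exceeded that of the Srf-null line by 3.46 ± 0.781, and it differed from that of wild type by -0.50 ± 0.781. Fosb read 1250.2, 1347, 6059 and 5913 in wild-type and 1311, 1413, 1621 and 1571 in Srf-null cells, and the rescue response was 1.63 ± 0.202 above the Srf-null one. Neither difference of response passed the adjustment over 9198 probe sets (adjusted p = 0.875 for Egr1 and 0.134 for Fosb, limma).

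Over all probe sets, 0 differences of response (0%) passed between the rescue and Srf-null lines in limma, with 390 at an unadjusted p under 0.05 (4.24%), and an ordinary linear model passed 12 (0.13%). Between the rescue and wild-type lines 0 passed as well, with 309 at an unadjusted p under 0.05 (3.36%) and 4 by the ordinary model (0.0435%). Both differences of response use the same rescue arrays. Apart from Egr2, Junb differed most from wild type among the immediate-early genes named, by 1 of its 2 probe sets. This probe set read 109.9, 173, 3161 and 3517 in wild-type cells, where the response was 4.60. The rescue response was 2.34 ± 1.01 (log2) lower, not past the adjustment (adjusted p = 1, limma). The other Junb probe set gave 2.52 in the rescue line and 2.86 in wild type, so it did not show this difference. Zfp36 and Nr4a1 also gave smaller values in the rescue line, at 2.05 against 3.40 and 1.10 against 2.34.

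Several immediate-early genes were also higher late without Srf. In Srf-null cells Rhob differed by 1.37, Zfp36 by 1.58, Atf3 by 1.48 and Ier2 by 1.04, while Fos gave -0.05. A second Atf3 probe set gave 0 in Srf-null cells, 2.32 in the rescue line and 2.85 in wild type. For Atf3 the value without Srf thus depended on the probe set. Of the 26 genes, both later arrays were higher in 16 in wild-type cells (background 12.5%) and in 14 in Srf-null cells (background 13.6%), with medians of 0.87 and 0.64. Egr2 gave 3.26 in wild-type and 3.53 in Srf-null cells, unlike the rescue line. The plot of serum differences in 3 lines sets these genes side by side.

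**Figure D3:**
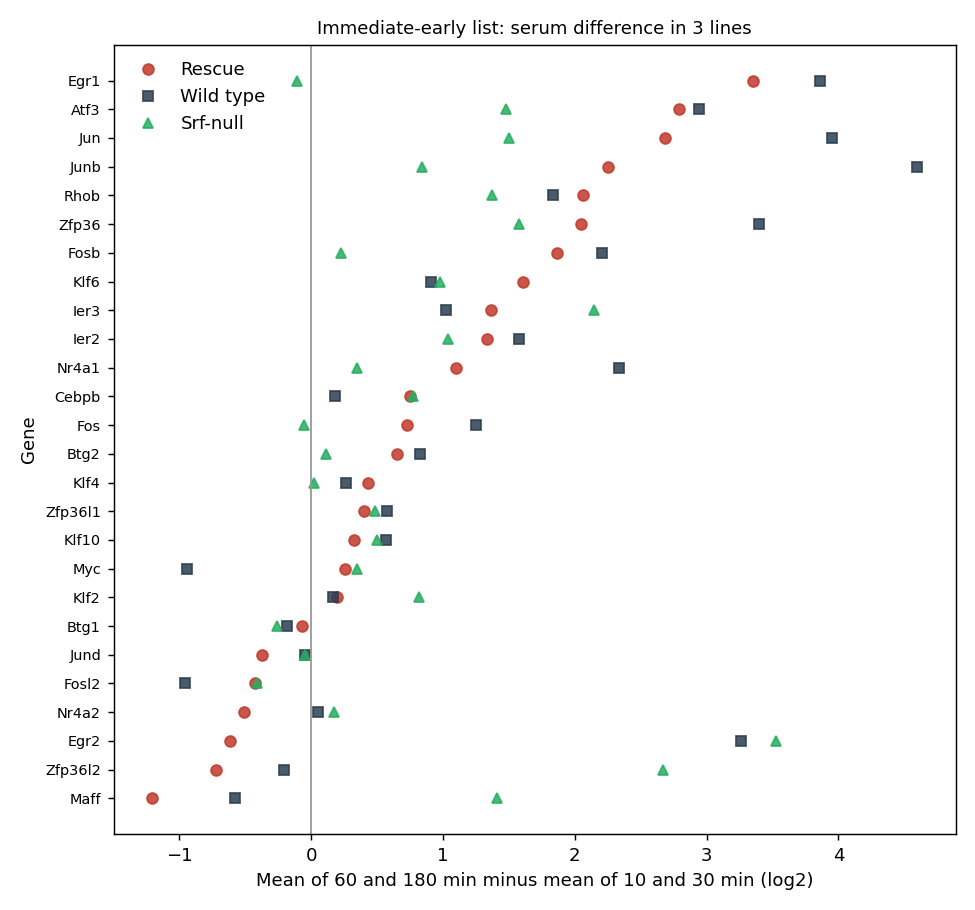
Mean of the 60 and 180 min arrays minus mean of the 10 and 30 min arrays (log2, x axis) for the 26 tested immediate-early genes (y axis), with the rescue line as circles, wild type as squares and Srf-null as triangles, 4 arrays per line. For Egr1 the rescue value of 3.35 lies near the wild-type 3.86 and far from the Srf-null -0.10, while for Ier2 and Rhob the 3 lines lie closer together.

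Feedback regulators, which shut signalling down after its start, leaned the same way with smaller differences. Of 18 tested, 0 were called, and 12 were higher on both later arrays and 0 lower, against 19.2% and 21.3% of all probe sets. At least 2-fold higher were 3 (3.84% of all), 6 had an unadjusted p under 0.05 (9% of all), and the median was 0.54. In wild-type cells 8 were higher and 1 lower (background 12.5% and 13.7%), and in Srf-null cells 9 and 1 (13.6% and 15.9%). Dusp1, a phosphatase that inactivates MAP kinases, read 1994 and 2249 early and 5001 and 7315 late, a difference of 1.51 ± 0.212 (adjusted p = 0.292, limma). Its 0 min array read 5029, at the level of 60 min. The wild-type and Srf-null lines gave 1.93 and 1.70, and the rescue response was -0.19 ± 0.453 from the Srf-null one.

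Odc1, the first enzyme of polyamine synthesis, and Gadd45g, a growth arrest protein, made up the rest of the 2-fold members. Odc1 read 23.9 at 10 min and 382 to 489 afterwards, so its 1.34 ± 0.796 rests on the 10 min array. Gadd45g read 377 and 425 early and 546 and 1187 late. Smad7, which restrains TGF-beta signalling, read 1270.3 and 1349 early and 2179.9 at both later times (0.74 ± 0.154). Socs3, which restrains JAK-STAT signalling, read 2364 and 2273 early and 3386 and 3914 late (0.65 ± 0.139). The pairs did not overlap in either gene, and the differences stayed under 2-fold.

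Secreted signals as a list did not move together. Of 18 tested, 5 were higher on both later arrays and 2 lower, against 19.2% and 21.3% of all probe sets. Among these 18, 0 were called, 3 had an unadjusted p under 0.05 (9% of all probe sets), and the median was -0.04. The highest values belonged to the CCN genes, whose matricellular proteins bind integrins and are known targets of SRF and YAP. Ccn2 read 283 and 467 intensity early and 2703 and 7419.8 late, a difference of 3.62 ± 0.532 or 12.3-fold (adjusted p = 0.326, limma). Ccn1 read 213 and 176 early and 1013 and 1761 late, 2.79 ± 0.433 or 6.90-fold (adjusted p = 0.360, limma). Both were highest at 180 min, and earlier and later arrays were far apart.

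The 2 CCN genes differed at 0 min, where Ccn2 read 3510.2 and Ccn1 246. In wild-type cells their differences were 3.14 and 2.96, close to the rescue line. In Srf-null cells Ccn1 did not exceed the floor before 180 min, at -0.394, 42.2 and -47.8 and then 196, and Ccn2 read 278, 276 and 165 before 2925 at 180 min. The rescue responses stood 2.19 ± 0.928 and 2.30 ± 1.49 above those of the Srf-null line for Ccn1 and Ccn2, not past the adjustment (adjusted p = 1 for both, limma). Csf1, a macrophage growth factor, read 810.5 and 217 early and 923 and 1409 late, and Cxcl1, a chemokine, 565 and 382 early and 682 and 1233 late, with a second probe set at 2.29.

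Cytoskeletal genes controlled by SRF and MRTF did not, as a list, stand higher late as the immediate-early genes did. Of 53 listed, 46 had a probe set and 35 were tested. Of these, 0 were called, and 11 were higher on both later arrays and 6 lower (19.2% and 21.3% of all probe sets). At least 2-fold higher were 3 and 0 were as far lower (3.84% and 3.53% of all). An unadjusted p under 0.05 was reached by 4 (9% of all), and the median was -0.06. With arrays scaled to a common median that median was 0.10, where all tested probe sets stood at 0.23. In wild-type cells 8 were higher and 1 lower (background 12.5% and 13.7%), and in Srf-null cells 3 and 3 (13.6% and 15.9%).

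Promoters of these genes hold the element that SRF binds, shown here because transcripts with a near identical box differed in how they stood late in serum. A CArG box was found within 250 bases before to 50 after the start, on either strand, in 8 of the 31 cytoskeletal genes with an entry in the RefSeq promoter table (25.8%), against 1.78% of the 4706 tested genes with an entry and 1.81% of all 27025 entries. The 150 bases before each start are given 5′ to 3′ on the strand of the gene, from RefSeq (GRCm38.p6), with the box in capitals. They belong to Acta1 (chr8:123894776-123894925, minus strand), Actc1 (chr2:114052876-114053025, minus strand), Cnn2 (chr10:79988450-79988599, plus strand), Actg1 (chr11:120348496-120348645, minus strand), Lima1 (chr15:99820150-99820299, minus strand) and, of the immediate-early list, Zfp36 (chr7:28379229-28379378, minus strand).
Acta1: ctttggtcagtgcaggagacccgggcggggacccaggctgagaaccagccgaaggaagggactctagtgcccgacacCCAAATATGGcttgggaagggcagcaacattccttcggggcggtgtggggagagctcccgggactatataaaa
Actc1: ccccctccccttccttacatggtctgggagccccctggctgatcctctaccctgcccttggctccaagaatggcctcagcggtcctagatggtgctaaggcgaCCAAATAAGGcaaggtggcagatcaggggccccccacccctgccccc
Cnn2: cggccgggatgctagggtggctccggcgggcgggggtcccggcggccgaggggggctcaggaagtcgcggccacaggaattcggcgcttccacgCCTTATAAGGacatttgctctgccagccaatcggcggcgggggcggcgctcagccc
Actg1: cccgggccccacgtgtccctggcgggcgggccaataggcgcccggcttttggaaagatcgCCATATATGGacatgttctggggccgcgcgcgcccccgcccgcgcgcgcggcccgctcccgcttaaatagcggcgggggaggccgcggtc
Lima1: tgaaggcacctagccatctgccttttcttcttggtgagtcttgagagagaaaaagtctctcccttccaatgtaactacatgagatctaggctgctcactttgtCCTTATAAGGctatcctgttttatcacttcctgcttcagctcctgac
Zfp36: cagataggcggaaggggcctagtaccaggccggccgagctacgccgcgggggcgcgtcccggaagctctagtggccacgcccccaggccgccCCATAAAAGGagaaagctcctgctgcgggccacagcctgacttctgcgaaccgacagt

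The first base of the box lay at -73 from the start in Acta1, -47 in Actc1, -56 in Cnn2, -90 in Actg1, -47 in Lima1 and -58 in Zfp36. Cnn2 and Lima1 carry the same 10 letters, CCTTATAAGG, and so does Vcl, with the first base at -227. Boxes were also found in Fhl1 and Fhl2, whose promoters, like that of Vcl, are not printed. A match is a description of the letters and was not tested as a binding site. Among the immediate-early genes, 2 of 21 with an entry held a box in this window (9.52%), Zfp36 and Egr2, and among the 192 higher genes with an entry 3 did (1.56%). Promoters on chromosome 18, which holds Egr1, were left out of the gene-by-gene listing of boxes. Whether Egr1 holds a box is therefore not reported here. The site of EGR proteins, GCGNGGGCG on either strand, was in 9 of the 21 (42.9%), in 14.6% of the higher genes, in 12% of tested genes and in 6.27% of all entries. The cAMP response element TGACGTCA was in 2 of the 21 (9.52%), in 3.51% of tested genes and in 2.03% of all entries.

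Of the cytoskeletal genes printed, the contractile actins had the larger differences. Acta1, skeletal muscle alpha actin, read -56.7 and 46.6 intensity early, both under the floor, and 256 and 171 late, a lower limit of 1.30 ± 0.443. In wild-type cells it read 312 to 429 from 10 to 180 min and in Srf-null cells it did not exceed the floor. Actc1, cardiac alpha actin, read 3237 and 2293 early and 4439 and 4765 late, 0.76 ± 0.195. Its probe set, like those of Actb and Atf3, carries the suffix of the array for sequence families and can also read related transcripts. A second Actc1 probe set did not exceed the floor on any rescue array and was not tested.

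The other printed cytoskeletal genes gave smaller differences. Cnn2, a calponin of non-muscle cells, read 602 and 566 early and 961 and 664 late (0.45 ± 0.329), higher on both later arrays. Lima1, which cross-links actin filaments, read 2988, 3164, 3205 and 2439.6 (-0.14 ± 0.174). Actg1 read 36013 and 37018 early and 32948 and 41633 late (0.02 ± 0.190), and this changed sign to -0.15 without the 180 min array. In these last 2 genes early and late arrays overlapped.

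Cnn1, calponin of smooth muscle, led the list. It read 167 and 5.72 intensity early and 835 and 949 late, a difference of 2.90 ± 0.518 or 7.48-fold, in part a lower limit because the 30 min array was at the floor (adjusted p = 0.379, limma). In wild-type cells it read 697 and 555 early and 1597 and 1426 late, and in Srf-null cells 945 and 839 early and 1749 and 714 late. The rescue line thus read the lowest of the 3 lines at 10, 30 and 60 min. Myh9, a non-muscle myosin heavy chain, read 424 and 471 early and 711 and 1127 late (1.003 ± 0.366), with 2769 at 0 min and 2141 or more on all wild-type and Srf-null arrays from 10 to 180 min.

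Other actin-linked genes gave small or divided values. Actb, cytoplasmic beta actin, read 3424, 3925 and 4333 from 10 to 60 min and 10693 at 180 min, so its 0.89 ± 0.420 rests on the last array, and a second probe set gave 0.17. Tagln, a smooth muscle actin-binding protein, read 641, 736 and 676 and then 1642 at 180 min, and its difference of 0.62 ± 0.466 turned to -0.025 without that array. Vcl, vinculin of focal adhesions, read 2409.8 and 1911 early and 2345 and 2064 late (0.04 ± 0.179). A second Vcl probe set near the floor gave -0.43, which turned to 0.047 with arrays scaled to a common median. Acta2 and Zyx did not exceed the floor on any of the arrays of the rescue line and were not tested.

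**Figure D4:**
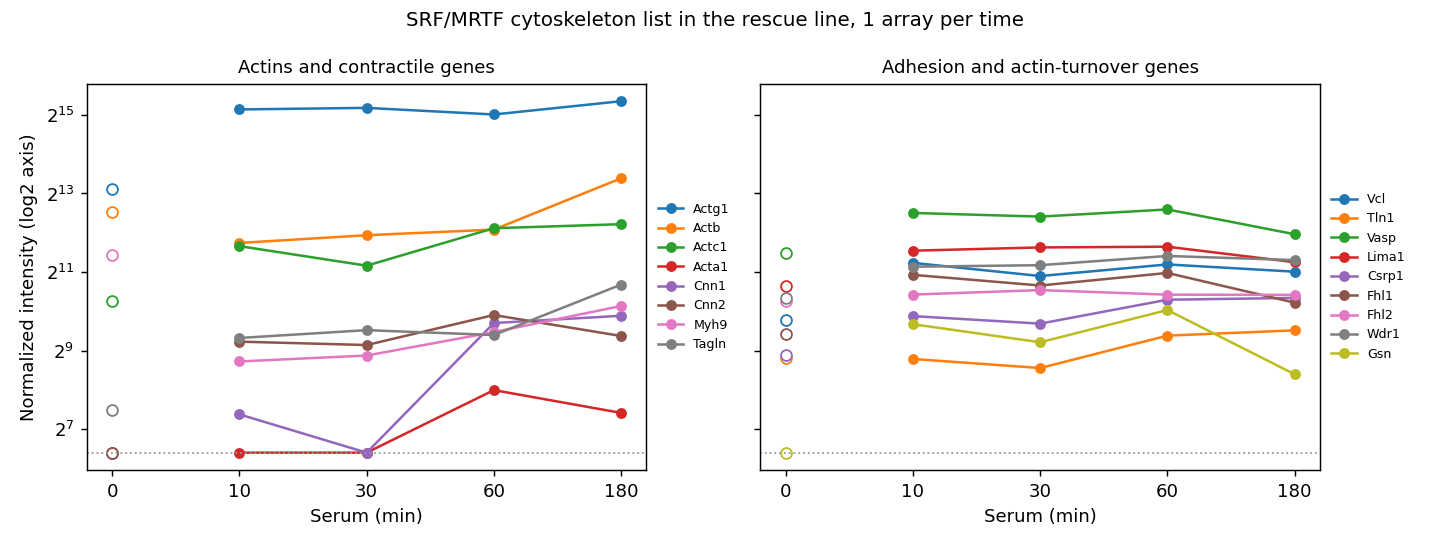
Normalized intensity (log2 axis) at each time of serum in min, evenly spaced and not to scale, for genes of the SRF/MRTF cytoskeleton list in the rescue line, with 1 array per time, the 0 min array as open circles and the floor as a dotted line. Cnn1 goes from the floor at 30 min to 835 at 60 min, Actb and Tagln are highest at 180 min, and Actg1, Vcl and Lima1 stay near level from 10 to 180 min.

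Inhibitors of differentiation, targets of BMP signalling that block basic helix-loop-helix factors, were among the larger differences. Id1 read 634 and 647 early and 2735 and 7462 late, 2.82 ± 0.470 (adjusted p = 0.364, limma). Id2 read 725 and 551 early and 1939 and 3787 late (2.10 ± 0.366), and Id3 read 881 and 706 early and 2009 and 4581 late (1.94 ± 0.411). All 3 were highest at 180 min among the 4 arrays, and all 3 read higher at 0 min than at 60 min, at 7495, 10526 and 5353. Id4 went the other way, at 544 and 615 early and 349 and 488 late.

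The 3 Id genes stood higher late without overlap in all 3 lines. Srf-null cells gave 2.78, 2.10 and 2.42 for Id1, Id2 and Id3, and wild-type cells 1.35, 1.46 and 2.16, and the rescue response of Id1 was 0.04 ± 0.657 above the Srf-null one and 1.47 ± 0.657 above the wild-type one, not past the adjustment (adjusted p = 1 for both, limma). The lists that hold them were otherwise mixed. Among all tested probe sets, 19.2% were higher and 21.3% lower without overlap, and 9% had an unadjusted p under 0.05. Of 16 BMP and TGF-beta targets 5 were higher on both later arrays and 1 lower, with 0 called, 5 at an unadjusted p under 0.05 and a median of 0.05. Of 20 FoxO and growth arrest genes 7 were higher and 3 lower, with 0 called, 5 at an unadjusted p under 0.05 and a median of 0.14. The 4 of the first list that were at least 2-fold higher were the 3 Id genes and Ccn2, and the 4 of the second were the 3 Id genes and Bcl6, a transcriptional repressor, which read -93.7 and 143 early and 341 and 262 late.

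Other large differences fell on genes outside the serum lists, mostly at low early signal. Med22, a subunit of the Mediator complex, read 99.97 and 50.7 early and 1246 and 2021 late, a lower limit of 4.11 ± 0.458, but its second probe set gave -0.75. Rps13, a ribosomal protein, read 205 and 623 early and 2388 and 4518 late (3.20 ± 0.604), while all other tested ribosomal proteins lay between -0.99 and 0.36. Taf1d, a component of the RNA polymerase I initiation factor, read 114 and 90.8 early and 462 and 1259 late (2.90 ± 0.628), and its other probe sets gave 1.79 and 1.80. It was higher late in the other lines as well, by 0.99 in wild-type and 1.73 in Srf-null cells. Usp38, Zfp275 and Flt3l, the last a cytokine of blood progenitors, gave 3.10, 2.61 and 2.59 with at least 1 earlier array near or under the floor. In wild-type cells Usp38 and Flt3l gave -2.03 and -0.62.

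Of the 303 probe sets at least 2-fold higher late, 54 were at the floor on both earlier arrays. Between 60 and 180 min 37 of the 303 were at least 2-fold higher still, 26 were as far lower and 240 stayed within 2-fold. In wild-type cells 41 of the 303 (13.5%) were also higher without overlap by 2-fold, against 2.99% of all tested probe sets, and in Srf-null cells 32 (10.6%) against 2.96%. Named genes among the 41 include Egr1, Ccn1, Ccn2, Cnn1, Atf3, Jun, Junb, Fosb, Rhob, Zfp36, Ier2, Nr4a1, Dusp1 and the 3 Id genes.

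No list held more than 2 of the transcripts that were at least 2-fold lower late in serum. Of the 278 probe sets lower by at least 2-fold, 61 were at the floor on both later arrays, and 0 were called. Necap2, an adaptor of clathrin vesicles, read 1279.7 and 1179 intensity early and -151 and -91.0 late, a difference of -3.85 ± 0.422 whose size is a lower limit (adjusted p = 0.212, limma). Smoc1, a secreted matrix protein that binds calcium, read 1859 and 1463 early and 229 and 269 late (-2.73 ± 0.324), and its 0 min array read 1735, like the earlier arrays. Hspg2, the basement membrane proteoglycan perlecan, read 943 and 741 early and -214 and 36.4 late (-3.30 ± 0.447), and -80.0 at 0 min. Neither matrix gene behaved so in wild-type cells, where Smoc1 gave 2.56 and Hspg2 2.75.

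Other large negative differences were those of Hcrt, the orexin precursor, at -3.30, Vax2, a homeobox factor, at -3.02, Ager, a receptor for glycated proteins, at -2.87, Hic1, a zinc finger repressor, at -2.86 (second probe set -0.91, with overlap), and Smim1, a small membrane protein, at -2.79. All 5 read 447 to 1202 on the earlier arrays and 208 or less on the later ones, and 0 of them passed the test. Rhbdl3, a rhomboid-like protease, read 506 and 332 early and -44.2 and -305 late. It gave -2.27 in the rescue line, -2.65 in wild type and -2.45 in Srf-null cells, and in all 3 lines both later arrays were under the floor. Strn4, a scaffold of phosphatase complexes, read 1872, 1247, 1052 and 91.1, so its -2.30 rests on the 180 min array. In wild-type cells 26 of the 278 (9.4%) were lower without overlap by 2-fold, against 2.65% of all, and in Srf-null cells 27 (9.7%) against 3.9%.

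Single times differed from each other about as often early as late. From 10 to 30 min 623 probe sets were at least 2-fold higher (7.91%) and 514 lower (6.52%), and from 30 to 60 min 544 higher (6.9%) and 538 lower (6.83%). From 60 to 180 min 587 were higher (7.45%) and 598 lower (7.59%). The numbers were largest from 10 to 180 min, with 755 higher (9.58%) and 697 lower (8.84%), and from 10 to 60 min they were 667 (8.46%) and 599 (7.6%). With 1 array per time these counts hold the noise of single arrays as well as any effect of serum.

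Few probe sets singled out 1 time. Those at least 2-fold above each of the other 3 arrays numbered 67 at 30 min (0.85%), 93 at 60 min (1.18%) and 113 at 180 min (1.43%), and 107 at 10 min (1.36%). Those as far below numbered 124 at 30 min, 139 at 60 min, 217 at 180 min and 232 at 10 min. Rbm39, a splicing coactivator, read 272, 154, 1739 and 447 from 10 to 180 min, high at 60 min alone, and a second probe set gave a late against early difference of 0.53 beside 2.11. Igsf10, an immunoglobulin superfamily protein, read 1286, 1350.4 and 1073 and then -39.1 at 180 min.

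Lists of growth and metabolism had medians between -0.06 and 0.20, beside -0.02 for all tested probe sets, of which 19.2% were higher and 21.3% lower without overlap. Of 24 G1 and S phase genes 4 were higher on both later arrays and 6 lower (median -0.05), and of 18 G2 and mitosis genes 6 and 3 (0.03). Of 29 nucleolar genes, which build ribosomes, 11 were higher and 4 lower (0.08), among them Nop56 at 6262 and 7469.5 early and 9371 and 11455 late. Nop56 is a core protein of the particles that modify ribosomal RNA. An unadjusted p under 0.05 was reached by 6 of the 29, against 9% of all probe sets. Of 17 genes of cholesterol and fatty acid synthesis 8 were higher and 2 lower (0.20), among them Scd1, a fatty acid desaturase, at 4032 and 3637 early and 5556 and 4956 late. Of 28 cytoplasmic ribosomal proteins 3 were higher and 4 lower (-0.06), of 24 glycolysis and hypoxia genes 4 and 7 (0.03), of 26 heat shock and unfolded protein genes 7 and 5 (0.06), and of 9 clock genes 2 and 1 (0.09). None of these lists held a called gene in limma, and those other than the nucleolar list held 1 to 3 genes each at an unadjusted p under 0.05.

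Genes of cell identity were mixed. Their counts stand beside 19.2% of all tested probe sets higher and 21.3% lower without overlap, and 9% at an unadjusted p under 0.05. Of 29 pluripotency genes 7 were higher on both later arrays and 4 lower, with 0 called in limma, 2 at an unadjusted p under 0.05 and a median of 0.04. Pou5f1, the core ES cell factor, read 24227, 18911, 26003 and 13035 from 10 to 180 min, a difference of -0.22 ± 0.352 that turned to 0.28 without the 180 min array. Of 19 imprinted genes 2 were higher and 4 lower (median -0.03), and Igf2 gave -0.38 ± 0.241, which turned to 1.90 when the 0 min array was added to the earlier ones. Krt18 read 2806 and 2760.2 early and 7036 and 4594 late (1.03 ± 0.221), and Krt8, its partner, 3053 and 2729 early and 6339.9 and 3388 late (0.68 ± 0.305). Both keratins were highest at 60 min. Among 11 tested trophoblast genes they were joined by Plac1, a placental gene, at 1.20, whose second probe set gave -1.01, and 0 were lower. Markers of other cell types gave few members without overlap. Of 16 extraembryonic endoderm genes 5 were higher and 2 lower (median 0.31), with Sox17 at -373 and -117 early and 165 and 227 late. Of 13 fibroblast genes 0 were higher and 4 lower (median -0.06), of 10 neural genes 0 and 0 (0.27), and of 9 mesoderm genes 2 and 1 (0.09).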

How the data were processed

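Total RNA of 15 samples was hybridized to Affymetrix MGU74A arrays, per the labels. The authors deposited a table of linear intensity values for 12654 probe sets, 66 of them array controls. Which software, background correction and scale produced them is not given in the sources used here. The intensities were quantile-normalized over the 15 arrays, set to a floor at the 40th percentile (84.98) and taken to log2. By the platform annotation, updated through gene identifiers, 10298 probe sets had 1 symbol, 363 several and 1993 none, and genes in lists were represented by their brightest probe set over the 4 arrays.

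The 4 rescue arrays of 10 to 180 min were fitted with limma 3.58.1 in R 4.3.3 (lmFit, eBayes with an intensity trend, 2 residual degrees of freedom), and differences of response on the 12 arrays of 10 to 180 min (6 residual degrees of freedom). The threshold was 0.05 after Benjamini-Hochberg adjustment. The code was tested on simulated data. Times stood for replicates, so p-values measure the spread between single arrays of 1 line, which may be technical, and not between independent cultures. The number of arrays limits the precision.

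Members, lists and tests were chosen with earlier results of these data known. Named genes were the called ones, the 15 largest differences without overlap per direction, the 8 clearest per time class, up to 4 per list and a fixed set. Rhob, Klf6, Zfp36, Nr4a1, Maff, Socs3, Id4, Cnn2 and Lima1 were added after their values had been seen. Promoter windows came from RefSeq. Alternatives concerned normalization, floor, filter, spread, samples and test.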

Additional observations from a re-analysis of the deposited data

How the results depend on the processing

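The count of calls, 1 in the 4-array fit, was 10 with arrays scaled to a common median, 2 with the spread shared over 12 arrays, and 0 without a filter, with probe sets above the floor on all arrays, without an intensity trend, with the 0 min array added to the earlier ones, and on leaving out any 1 array (0 to 0). The 10 calls under median scaling were Elovl1, Egr1, Atf3, Rhob, Fosb, Ccn2, Id1, Id2, Klf6 and Med22. The ordinary linear model called 1 probe set, of Ifitm3, and not Elovl1. The 303 higher and 278 lower probe sets without overlap and past 2-fold became 666 and 103 with median scaling, 478 and 433 with the floor at the 35th percentile, 63 and 36 with the floor at the 60th, 136 and 131 with all arrays above the floor, and 193 and 184 with the 0 min array added. Leaving out 1 array gave 410 to 589 higher and 406 to 509 lower, with the most without the 30 min array and 527 and 507 without the 60 min array, as overlap is rarer by construction with fewer arrays. The difference of response between the rescue and Srf-null lines gave 14 calls without a filter and 12 by the ordinary model, and that between the rescue and wild-type lines 4 and 4; leaving out 1 array gave 0 to 0 for both.

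Of 429 values of 42 named probe sets under the settings that kept the 4 arrays, 424 kept their direction. The 5 others were Igf2 (1.90) and Myc (-0.13) with the 0 min array added, and the Vcl probe set near the floor with median scaling (0.047), the 35th percentile floor (0.23) and asinh values (0.46). On leaving out 1 array, Actg1 ranged from -0.15 to 0.19, Egr2 from -2.71 to 1.48 (0.86 without the 60 min array), Pou5f1 from -0.72 to 0.28, Tagln from -0.025 to 1.26 and this Vcl probe set from -0.95 to 0.086. The cause of these moves was not tested. No paired analysis was possible because the labels carry no replicate numbers, and within the rescue line no time occurs on more than 1 array. Across lines the times are shared, and with the time point as a block both differences of response again gave 0 calls. The floor at the 20th percentile was not run because that percentile lies below 0 (-102 intensity), and the 35th was chosen in its place after seeing the data. Signal near the floor limits the differences of Elovl1, Jun, Acta1, Med22, Necap2 and Hspg2, which are lower limits.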
